A study of Mus musculus with 5 samples.

Results

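Cathepsins and legumain are the proteases that cut proteins inside lysosomes, endosomes and secretory granules, and 10 of their genes (Ctsa, Ctsb, Ctsc, Ctsd, Ctsh, Ctsl, Ctss, Ctsw, Ctsz and Lgmn) were followed by name among the 27998 genes counted. The study took live CD45+ immune cells by sorting from 3 mice, in each from the tumour, the dLN and the non-dLN site. Mouse 1 was given nivolumab_mIgG1_D265A, mouse 2 nivolumab_mIgG1 and mouse 3 the isotype control MOPC21. Nivolumab blocks the inhibitory T cell receptor PD-1, and the D265A exchange lies in the Fc part of the antibody. The 9 samples carried hashtag antibodies and were run as 1 pool by 5′ single-cell RNA sequencing, deposited as 4 expression libraries and 1 hashtag library. No source used here ties a hashtag to a mouse or a site, so the samples are called populations 1 to 9 by hashtag number and are given as values, with no comparison of antibodies or sites and no test.

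Most cathepsins are cysteine proteases that work at acid pH. Cathepsin D is an aspartic protease, cathepsin A a serine carboxypeptidase that also protects other lysosomal enzymes, and legumain cuts after asparagine and activates several cathepsins. In antigen-presenting cells cathepsin S removes the invariant chain from MHC class II molecules, cathepsin C (dipeptidyl peptidase I) activates granzymes in killer cells, and cathepsin W is known for its restriction to NK cells and cytotoxic T cells.

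After filtering, 21094 cells with a hashtag remained, 2051 to 2550 in a population (median 2346), with 9082690 to 31322375 gene molecules per population, each counted once by its unique molecular identifier (UMI), and medians of 3374 to 10662 UMIs per cell. The 10 genes held 841425 of 126562210 UMIs. Cells were placed in classes by marker genes that include no cathepsin, and 10.1% of cells met no gate. Macrophages (2944 cells), monocytes (420), NK cells (546) and activated CD8 T cells (1134) came mostly from populations 1, 4 and 7, and naive CD8 T cells (2372), naive CD4 T cells (1364) and B cells outside the germinal centre gate (6426) from the other 6. Among the genes that stood out most in a class were genes of its own gate, whose lead was fixed in advance. These were C1qa, C1qb and C1qc in macrophages, Chil3 and Hp in monocytes, and Lag3 and Cxcr6 in activated CD8 T cells. Foxp3 in regulatory T (Treg) cells and Siglech in plasmacytoid dendritic cells were others. Leading genes that the gate of the class does not use included Ms4a7 and Ccl7 in macrophages and Ly6i and Thbs1 in monocytes. Gzmf and Rgs16 in activated CD8 T cells and Tnfrsf4 and Ikzf2 in Treg cells were also of this kind. The germinal centre B class was led by Jchain and Slpi. Levels are UMIs summed over the cells of a class per 1000000 UMIs of that class (CPM), and the intervals in parentheses (95%, exact Poisson for levels, exact conditional binomial for ratios) cover counting error only.

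Each gene had its own order of cell classes. Macrophages held the highest level of 6 of the 10: Ctss 4582 CPM (4562 to 4601), Ctsc 2820 CPM (2805 to 2836), Ctsb 1992 CPM (1979 to 2005), Lgmn 1651 CPM (1640 to 1663), Ctsz 1065 CPM (1056 to 1075) and Ctsa 533 CPM (526 to 539). For Ctsc, Ctss, Ctsz and Lgmn the interval of the next class lay lower. For Ctsa and Ctsb the interval of the 26 plasmacytoid dendritic cells (475 and 1791 CPM) overlapped that of the macrophages.

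Plasmacytoid dendritic cells, the lymphoid-looking dendritic cells that make type I interferon, came first for Ctsl and Ctsh. Ctsl, a broad cysteine endopeptidase, reached 1579 CPM (1407 to 1767) there, against 385 CPM in macrophages and at most 24.8 CPM in any T cell class. Ctsh, an aminopeptidase, reached 1290.4 CPM (1135 to 1461), against 842 CPM in macrophages. The Ctsl level did not come from a few cells: with each cell thinned to 1500 UMIs, 69.2% of the plasmacytoid cells held a Ctsl UMI (88.5% unthinned, median 8160.5 UMIs per cell), against 35.4% of macrophages (82.0% unthinned, median 15162.5) and 2.67% of B cells (5.18% unthinned, median 2994).

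Ctsd and Ctsw were the 2 genes with their highest level in killer lymphocytes. Ctsd was highest in activated CD8 T cells with 860.4 CPM (841 to 880.0), then in NK cells with 574 CPM (549 to 599.7) and in macrophages with 438 CPM (432 to 445). Ctsw was highest in NK cells with 1189 CPM (1153 to 1226), then in activated CD8 T cells with 767 CPM. CD8 T cells that met neither the activated nor the naive gate followed with 500 CPM (465 to 536), and naive CD8 T cells with 416 CPM. Naive CD4 T cells held 90.4 CPM of it. It stood at 8.05 CPM in B cells, 3.54 CPM in macrophages and 1.89 CPM in monocytes.

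**Figure D1:**
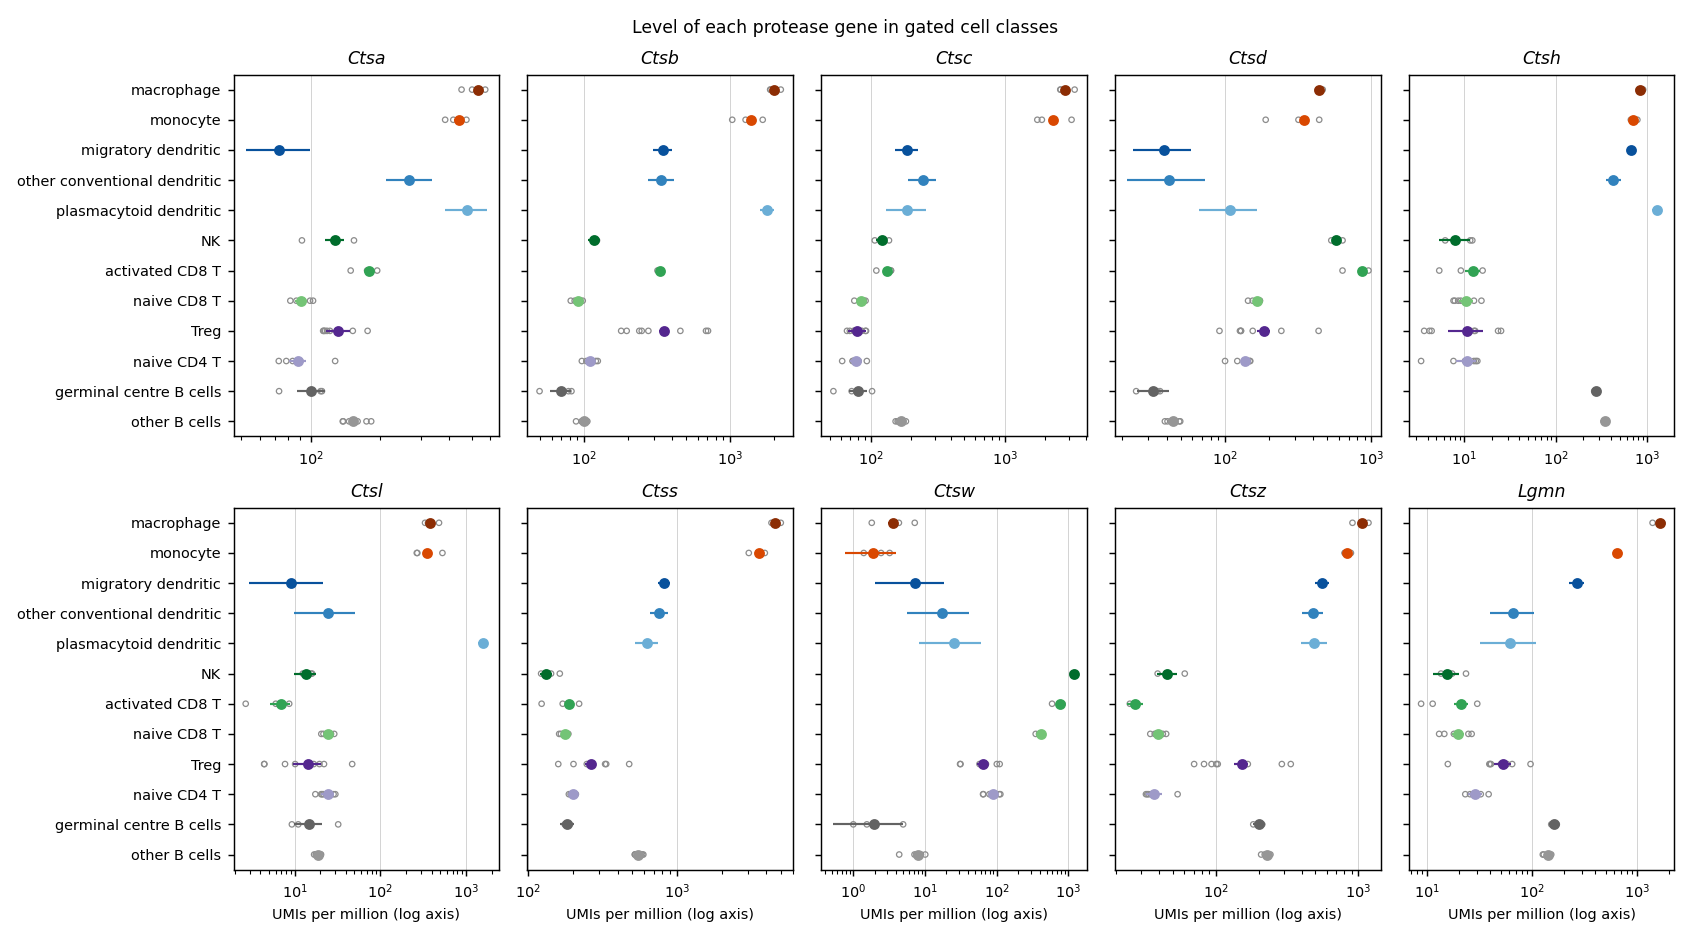
Levels of the 10 genes in 12 gated cell classes, in CPM on a log axis. Filled points are levels pooled over populations, with lines for the exact 95% Poisson interval, and open circles are single populations with at least 20 cells of the class; Ctsw is high in NK and CD8 T cells, Ctsl and Ctsh peak in plasmacytoid dendritic cells, and Ctsd peaks in activated CD8 T cells.

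Free RNA gives low counts in cells that do not make a gene, so macrophage RNA outside macrophages was followed with Apoe, Lyz2, Pf4, Ms4a7 and Trem2, which no gate uses. Their summed level was 11322 CPM in macrophages and between 0.824% and 1.63% of that in T and NK cell classes. Scaled by that share, the macrophage level of Ctsh alone would give 9.34 CPM in naive CD8 T cells, where 10.5 CPM were counted, and over all T and NK classes the counted Ctsh was 0.616 to 1.55 times the scaled level. Lgmn in NK cells (15.3 CPM), activated CD8 T cells (21.0 CPM) and naive CD8 T cells (19.6 CPM) was 0.982, 0.899 and 1.07 times its scaled level. The part of free RNA in these Ctsh and Lgmn levels was not tested. Ctsd in activated CD8 T cells was 139 times and Ctsb in Treg cells 21.5 times the scaled level.

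The genes lie on 8 chromosomes (GRCm38, GENCODE vM21), and all are protein-coding: Ctsa at 164832873 to 164841032 (plus strand) and Ctsz at 174427493 to 174439039 (minus) of chromosome 2, Ctss at 95526786 to 95556403 of chromosome 3 (plus), Ctsc at 88278085 to 88310888 (plus) and Ctsd at 142375911 to 142388038 (minus) of chromosome 7, and Ctsh at 90054152 to 90076089 of chromosome 9 (plus). Lgmn lies at 102394084 to 102439813 of chromosome 12 (minus), Ctsl at 64359337 to 64370890 of chromosome 13 (minus), Ctsb at 63122462 to 63145923 of chromosome 14 (plus) and Ctsw at 5465043 to 5468507 of chromosome 19 (minus). RefSeq promoters (GRCm38.p6, 250 bases before to 50 after an annotated start) were matched for 7 of the 10 genes. Ctsb, Ctsh and Ctsw had no entry. The letters CACGTG, a palindrome known as the E-box bound by Tfeb, Tfe3 and Mitf, stood in 4 of the 9 promoters of these 7 genes (1 each of Ctsa, Ctsd, Ctsl and Lgmn), against 7.15% of all 32851 promoters of that length. The letters GAGGAAGT, known as a binding sequence of the myeloid and B cell factor PU.1, were searched on both strands and stood in 2 of the 9 (Ctsc and Ctss), against 3.20% of all promoters. No motif overlapped the other, and a match describes letters, not binding. Shown 5′ to 3′ on the gene's strand are the promoters of Ctsd, the gene highest in activated CD8 T cells, of Ctsa and Lgmn, which carry the same E-box and were highest in macrophages, and of Ctss, which carries the PU.1 letters and was lower in germinal centre B cells. Capitals mark the motif. The starts used for Ctsa, Ctsd, Ctsl and Lgmn lie inside the gene coordinates given above, so each is an annotated start within the gene. Those of Ctsc and Ctss match the first base of the gene.
Ctsd chr7:142387778-142388077, minus strand: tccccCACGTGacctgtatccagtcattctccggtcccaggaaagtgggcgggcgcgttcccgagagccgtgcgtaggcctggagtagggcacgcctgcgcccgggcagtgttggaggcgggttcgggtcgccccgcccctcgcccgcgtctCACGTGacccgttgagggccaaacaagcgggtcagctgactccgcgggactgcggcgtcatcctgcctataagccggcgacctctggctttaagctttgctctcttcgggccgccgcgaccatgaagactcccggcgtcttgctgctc
Ctsa chr2:164833523-164833822, plus strand: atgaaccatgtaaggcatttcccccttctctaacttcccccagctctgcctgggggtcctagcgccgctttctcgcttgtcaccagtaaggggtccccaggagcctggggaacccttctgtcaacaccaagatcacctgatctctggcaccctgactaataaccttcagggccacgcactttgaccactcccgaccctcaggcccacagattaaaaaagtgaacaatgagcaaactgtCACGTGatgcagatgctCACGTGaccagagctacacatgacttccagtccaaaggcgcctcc
Lgmn chr12:102439043-102439342, minus strand: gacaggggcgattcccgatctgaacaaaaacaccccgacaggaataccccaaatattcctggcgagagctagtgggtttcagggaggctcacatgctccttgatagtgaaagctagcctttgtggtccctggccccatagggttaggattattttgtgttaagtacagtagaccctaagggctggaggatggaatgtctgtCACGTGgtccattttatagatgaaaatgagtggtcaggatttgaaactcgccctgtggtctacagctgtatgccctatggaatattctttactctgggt
Ctss chr3:95526536-95526835, plus strand: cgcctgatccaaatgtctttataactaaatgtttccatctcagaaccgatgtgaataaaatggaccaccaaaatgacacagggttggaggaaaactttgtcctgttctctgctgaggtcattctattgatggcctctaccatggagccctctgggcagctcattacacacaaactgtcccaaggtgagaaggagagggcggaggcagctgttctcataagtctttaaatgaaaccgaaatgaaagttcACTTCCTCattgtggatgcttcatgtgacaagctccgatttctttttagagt
In Ctsd the E-boxes begin 245 and 98 bases before the annotated start used. In Ctsa they begin 12 bases before that start and at base 6 after it, and in Lgmn 49 bases before it. In Ctss the letters appear as ACTTCCTC, beginning 2 bases before the start.

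The factors known to bind the E-box differed between classes in opposite directions. Mitf stood at 83.0 CPM in macrophages, against 4.53 CPM in B cells, and Tfe3 at 47.3 CPM in macrophages, against 15.2 CPM in B cells. Tfeb went the other way, with 30.6 CPM in macrophages, against 103 CPM in B cells (ratio 0.30, 0.28 to 0.32).

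Macrophages differed from monocytes, the blood cells that give rise to many of them, mainly in legumain. Lgmn measured 1405, 1621 and 1740.4 CPM in macrophages of populations 1, 4 and 7, against 635, 672 and 631 CPM in monocytes of the same populations. The 2 classes did not overlap in any population, and the pooled ratio was 2.58 (2.48 to 2.69), with 2.21 to 2.76 within populations. A gene is called higher or lower here by size and not by a test: at least 50 UMIs in the 2 classes together, a ratio of at least 2 or at most 0.5, and an interval that leaves out 1. Lgmn was the only one of the 10 so called, where 13.2% of 11278 genes were called higher and 5.71% lower, so the count is close to the background. The median log2 ratio was 0.35 over the 10 genes and 0.17 over all genes measured.

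The other 9 genes stood closer together in the 2 phagocytes. Ctsb, a cysteine endopeptidase and carboxypeptidase, had a ratio of 1.44 (1.40 to 1.48), higher in macrophages in 3 of 3 populations. Ctsz, a carboxypeptidase, had 1.28, Ctss 1.28, Ctsc 1.23, Ctsa 1.21 and Ctsh 1.20, each also higher in macrophages in 3 of 3 populations. Ctsd (1.26) and Ctsl (1.08) were higher in macrophages in 2 of 3. Among other genes of the lysosome, the membrane protein Cd63 (5.24) and the class II chaperone Cd74 (3.06) were called higher in macrophages. The inhibitor cystatin B (Cstb) was called lower (512 CPM in macrophages, against 1090.2 CPM in monocytes, ratio 0.47), and so was Ctse, an aspartic protease (0.40). Macrophages were deeper, with a median of 15162.5 UMIs per cell, against 8495 in monocytes.

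Most of the genes (Ctsb, Ctsc, Ctsh, Ctsl, Ctss and Ctsz) were highest in population 4 of both phagocyte classes. Ctsl measured 361, 487 and 334 CPM in macrophages of populations 1, 4 and 7, and Ctsc 2587, 3310 and 2605 CPM, while Ctsd was highest in population 1 and Ctsa and Lgmn in population 7. The spread of Ctsl and Ctsc was wider in monocytes. Ctsl measured 268, 534 and 272 CPM in monocytes of populations 1, 4 and 7, Ctsc 1745, 3140 and 1886 CPM, Ctsd 190.3, 441 and 319 CPM, and Ctsb 1035, 1674 and 1278 CPM. Those 4 of 9 genes measured differed at least 1.5-fold between the highest and the lowest population with an interval leaving out 1, where 17.8% of all genes did. Population 1, the lowest for all 4, rests on 39 monocytes, with 59 Ctsd UMIs. In macrophages 1 of 10 did, where 22.6% of all genes did; that gene was Ctsw, at 7.22, 4.34 and 1.82 CPM, levels below that of B cells.

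**Figure D2:**
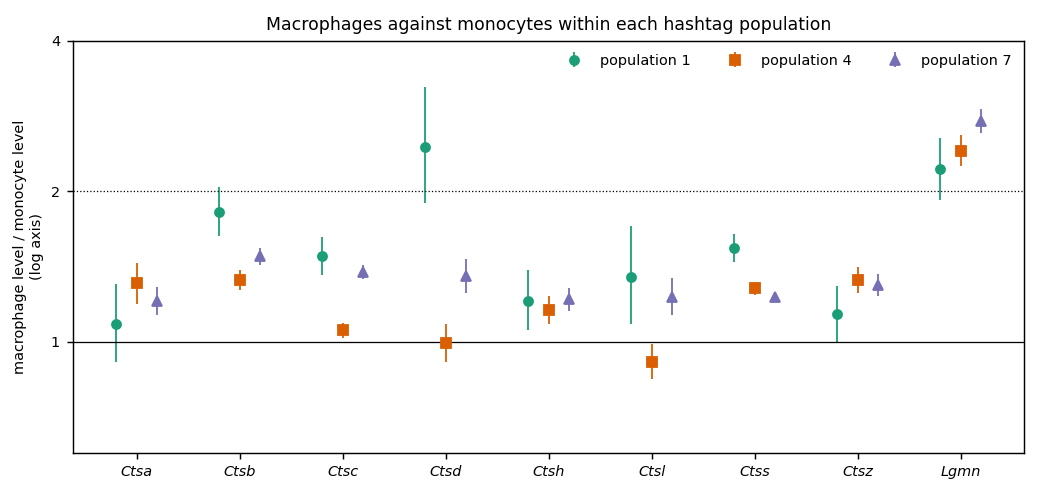
Macrophage level divided by monocyte level for 9 genes (without Ctsw) in populations 1, 4 and 7, on a log axis with exact 95% intervals of the ratio; the solid line is a ratio of 1 and the dotted line a ratio of 2. Lgmn lies above 2 in all 3 populations, and Ctsd does so in population 1 alone (2.45, 1.90 to 3.23), which holds 39 monocytes.

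Over single macrophages the genes were loosely tied. Spearman's correlation of counts scaled to each cell's UMI total, over 9 genes without Ctsw (36 pairs), had medians of 0.294, 0.308 and 0.321 in populations 1, 4 and 7 (558, 915 and 1442 cells). Ctsb and Ctsd formed the tightest pair in all 3 (0.567, 0.625 and 0.570), while Ctsc and Ctsd were the loosest (0.106, -0.0095 and 0.092). All of these cells share 1 pool, and sparse counts lower such values. Correlations of other genes of like level were not computed, so these values have no background. In monocytes Ctsb and Ctsd reached 0.384 in population 4 and 0.225 in population 7.

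Activated CD8 T cells, the killer cells that have met antigen, held more Ctsd and Ctsb and less Ctsl than naive CD8 T cells. Ctsd measured 958, 877 and 637 CPM in activated cells of populations 1, 4 and 7, against 144 to 174 CPM in naive cells of 6 populations (median 170 CPM). Ctsb measured 338, 336 and 318 CPM in activated cells, against 81.1 to 98.0 CPM in naive cells. Neither gene's levels overlapped between the classes, and the pooled ratios were 5.19 for Ctsd (4.95 to 5.46) and 3.64 for Ctsb (3.40 to 3.91). Ctsl stood at 8.65, 6.03 and 2.69 CPM in activated cells, against 20.5 to 29.1 CPM in naive cells, a ratio of 0.28 (0.21 to 0.37) that rests on 60 and 307 UMIs.

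Of the 10 genes, 2 were called higher and 1 lower, where 15.0% of 10272 genes were called higher and 9.95% lower. The median log2 ratio was 0.44 over the 10 genes and 0.12 over all. Ctsa (1.98, 1.83 to 2.14) and Ctsw (1.84, 1.78 to 1.91) lay just short of the limit of 2. Leaving out population 5, 7 or 8 moved Ctsa past it (2.01, 2.04 and 2.02). Ctsc, the granzyme-activating cathepsin, had a ratio of 1.55 (1.42 to 1.69). Since no population had 20 cells of each class, class and population cannot be told apart.

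Granule genes and cathepsin inhibitors were called higher as well. All 5 granule genes passed, with Gzmb at 3309 CPM in activated cells, against 14.5 CPM in naive cells, and the pore protein Prf1 at 797 CPM in activated cells, against 27.6 CPM in naive cells. All 3 inhibitors measured passed: cystatin F (Cst7), known to inhibit cathepsin C, at a ratio of 3.54, cystatin C (Cst3) at 2.39 and cystatin B (Cstb) at 2.01. Gnptab, a subunit of the enzyme that makes the mannose 6-phosphate tag for sorting to lysosomes, had a ratio of 4.75 (4.11 to 5.50). Of 8 lysosomal hydrolases and cofactors, 2 passed, among them Grn (2.30), which encodes progranulin. None of 3 transcription factors and none of 4 class II genes passed.

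Among activated CD8 T cells, population 1 was highest and population 7 lowest for Ctsd (958, 877 and 637 CPM in populations 1, 4 and 7) and Ctsw (830.5, 788 and 594 CPM). A spread of at least 1.5-fold was reached by 5 of 10 genes (Ctsd, Ctsh, Ctsl, Ctss and Lgmn), where 25.3% of all genes reached it. The 5 macrophage markers summed to 220, 108 and 75.9 CPM in the same populations, and all 5 genes stood in the same order, among them Ctss (221, 171 and 124 CPM), Lgmn (29.9, 11.3 and 8.73 CPM), Ctsh (16.0, 9.25 and 5.37 CPM) and Ctsl (8.65, 6.03 and 2.69 CPM). The pooled Ctsh and Lgmn levels of these cells were those near the level scaled from macrophages. Their part in the result was not tested. Without population 1 the ratio of Lgmn to naive cells was 0.59, against 1.07 with it.

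NK cells, the innate killer cells, held more Ctsw and Ctsd than naive CD8 T cells. Ctsw measured 1189, 1198 and 1144 CPM in NK cells of populations 1, 4 and 7, against 351 to 435 CPM in naive CD8 T cells of 6 populations. Ctsd measured 534, 572 and 637 CPM in NK cells, against 144 to 174 CPM in naive CD8 T cells. NK cells were above every naive population for both, with pooled ratios of 2.86 for Ctsw (2.74 to 2.98) and 3.46 for Ctsd (3.26 to 3.69). These were 2 of 10 genes called higher and none was called lower, where 12.6% of 9824 genes were called higher and 7.36% lower. The median log2 ratio was 0.29 over the 10 genes and 0.12 over all. As in that comparison, class and population cannot be told apart.

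Ctsb, by contrast, was near the naive level in NK cells (1.29, 1.15 to 1.45). It stood at 115, 117 and 123 CPM in NK cells of populations 1, 4 and 7 and at 338, 336 and 318 CPM in activated CD8 T cells of the same populations. Ctsl was at 16.0, 12.5 and 15.6 CPM in NK cells, a pooled ratio to naive CD8 T cells of 0.55 (0.39 to 0.74). All 4 granule genes measured were called higher in NK cells than in naive CD8 T cells (Gzma 3039 CPM in NK cells, against 8.00 CPM), as was Cst7 (3.88).

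The share of cells with a Ctsw UMI followed the levels. After thinning to 1500 UMIs it was 77.1% of NK cells (73.3 to 80.5%, exact Clopper-Pearson; 94.7% unthinned, median 5023 UMIs), 57.8% of activated CD8 T cells (54.8 to 60.7%; 87.6% unthinned, median 6861.5 UMIs) and 42.7% of naive CD8 T cells (40.7 to 44.8%; 77.9% unthinned, median 4892.5 UMIs). B cells, which should lack the gene, gave 1.22% (0.958 to 1.53%; 2.23% unthinned, median 2994 UMIs), and macrophages 0.858%. Thinning left out 10 NK cells, 7 activated and 7 naive CD8 T cells, 353 B cells and 31 macrophages.

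**Figure D3:**
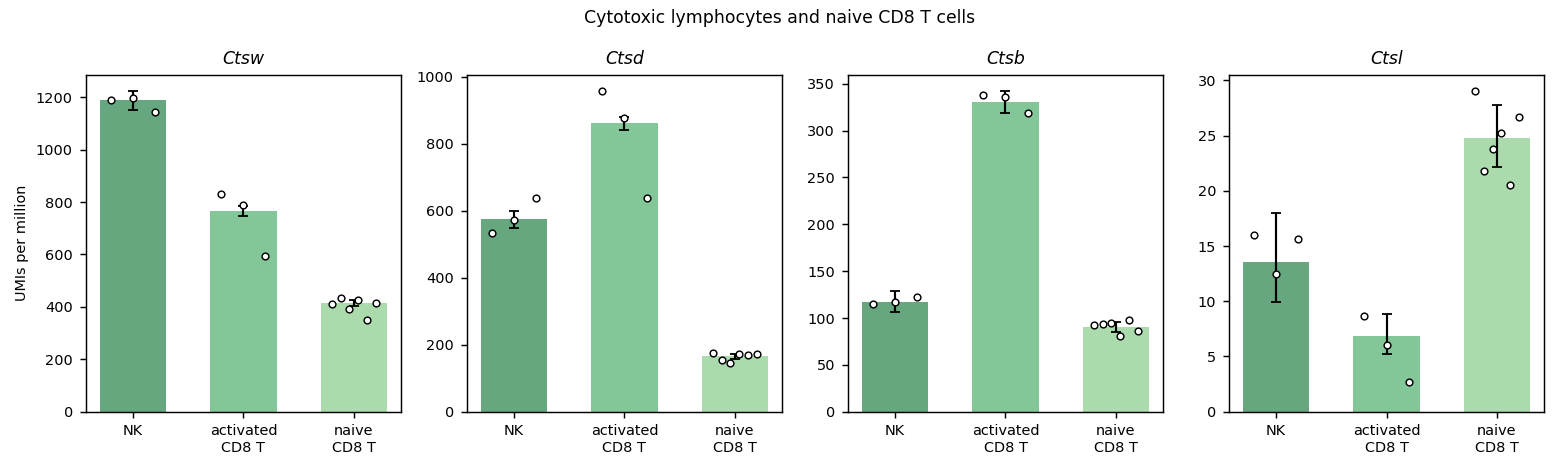
Levels of Ctsw, Ctsd, Ctsb and Ctsl in NK cells and activated CD8 T cells and, to their right, naive CD8 T cells, in CPM. Bars are pooled levels with exact 95% Poisson intervals and circles are populations (1, 4 and 7 for NK and activated cells, the other 6 for naive cells); Ctsw and Ctsd are higher in every NK and activated population than in every naive one.

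Treg cells, the suppressive CD4 T cells marked by Foxp3, held more Ctsb and Ctsz than naive CD4 T cells. In the 6 populations with 20 cells of both classes (2, 3, 5, 6, 8 and 9), Ctsb measured 249, 276, 457, 179.7, 196 and 239 CPM in Treg cells, against 104, 120.5, 124, 108, 108 and 96.6 CPM in naive CD4 T cells. Ctsz measured 93.2, 103, 168, 70.3, 82.5 and 101 CPM in Treg cells, against 53.8, 35.0, 35.7, 32.3, 33.6 and 32.9 CPM in naive CD4 T cells. Treg cells were higher in 6 of 6 populations for both genes, and the groups did not overlap. In population 2 the interval of the Ctsz ratio included 1 (1.73, 0.97 to 2.99). The higher Ctsb was not particular to Treg cells. Activated CD4 T cells (122 cells) held 407 CPM of it (358 to 460), an interval that overlapped the pooled one of Treg cells. Their Ctsz, at 98.5 CPM, lay above the 36.7 CPM of naive CD4 T cells, with an interval below that of Treg cells. Activated CD4 T cells and Treg cells were not compared within populations.

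The pooled ratios were 3.23 for Ctsb (2.90 to 3.59) and 4.12 for Ctsz (3.46 to 4.92), with 1.67 to 3.68 and 1.73 to 4.69 within populations. The median over populations was 2.34 for Ctsb and 2.70 for Ctsz. Of the 10 genes, 2 were called higher and none lower, where 13.2% of 8808 genes were called higher and 4.18% lower. The median log2 ratio was 0.41 over the 10 genes and 0.20 over all. Lgmn (1.83, 1.43 to 2.34) was higher in 6 of 6 populations without reaching the limit, and so was Ctsa (interval 1.29 to 1.74). Within populations the interval included 1 for Lgmn in populations 2, 3, 6 and 9 and for Ctsa in populations 2, 3, 5 and 9. Ctsl had a ratio of 0.58 (0.38 to 0.87) from 29 and 148 UMIs, and was called lower (0.49) without population 4.

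Further genes of the pathway were called higher in Treg cells. The cathepsin inhibitor Cst7 measured 179.7 CPM in Treg cells, against 12.6 CPM in naive CD4 T cells (14.2, 11.1 to 18.4), higher in 6 of 6 populations. M6pr, a mannose 6-phosphate receptor that carries enzymes to the lysosome, had a ratio of 3.04 and was higher in 6 of 6. Grn (2.54), Lamp2 (2.16) and Gzmb (32.2) were called higher and were so in 5 of 6. None of the pathway genes measured was called lower.

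Across all 8 populations with 20 or more Treg cells, populations 1 and 4 were highest for Ctsb with 684 CPM (581 to 801) and 707 CPM (568 to 868), while the other 6 lay between 179.7 and 457 CPM. Ctsz had the same leaders with 336 CPM in population 1 (264 to 420.0) and 290.5 CPM in population 4 (205 to 400.4), the others lying between 70.3 and 168 CPM. Ctsd was highest in population 1 with 437 CPM (355 to 532), and the other 7 lay between 92.0 and 243 CPM. A spread of 1.5-fold was reached by 6 of 8 genes measured, where 65.1% of all genes reached it, so the spread of the cathepsins is that of genes in general. The 5 macrophage markers summed to 238 CPM in Treg cells of population 1, 78.5 CPM in population 4 and 33.6 to 142 CPM in the others. Their part in the result was not tested. Population 1 rests on 42 and population 4 on 29 Treg cells.

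**Figure D4:**
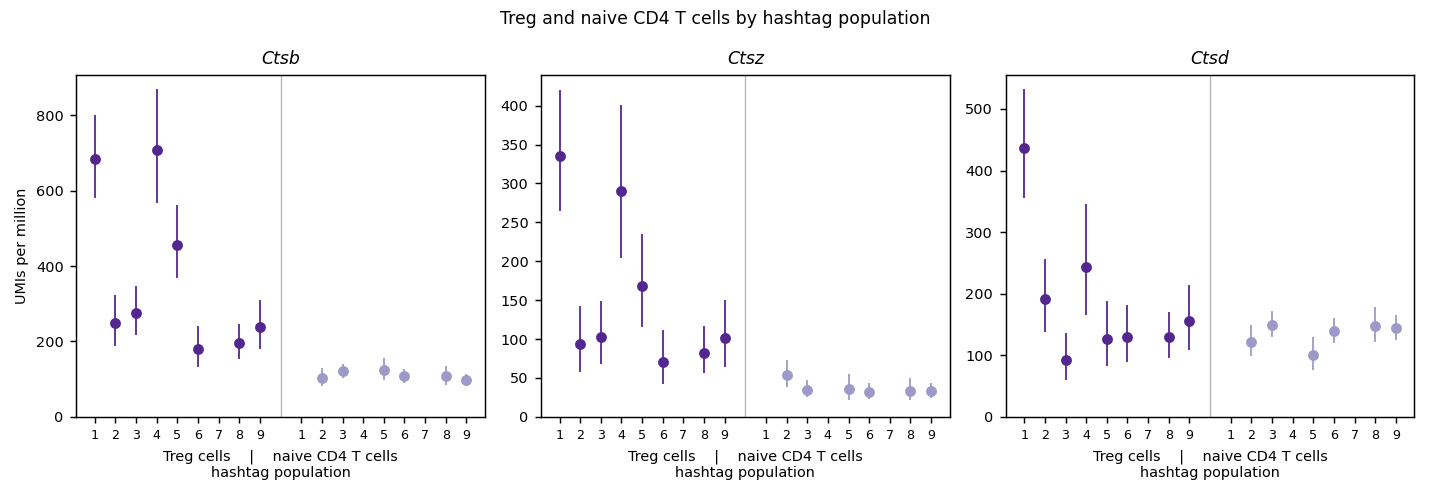
Levels of Ctsb, Ctsz and Ctsd in Treg cells of 8 populations and, to their right, naive CD4 T cells of 6, in CPM with exact 95% Poisson intervals; populations with under 20 cells are blank. Treg cells of populations 1 and 4 lead for Ctsb and Ctsz, and naive CD4 T cells lie below every Treg population for both genes.

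Migratory dendritic cells, which carry antigen to lymph nodes, held more Lgmn and less Ctsa than other conventional dendritic cells. Lgmn stood at 267 CPM in migratory cells (225 to 314), against 66.1 CPM in the others (39.8 to 103), a ratio of 4.04 (2.49 to 6.90). Ctsa stood at 73.1 CPM in migratory cells, against 268 CPM in the others (0.27, 0.18 to 0.40). These were 1 gene higher and 1 lower of 7 measured, where 22.3% of 2628 genes were called higher and 13.2% lower, and the median log2 ratio was 0.10 over the 7 and 0.07 over all. Ctss (1.07), Ctsb (1.02) and Ctsz (1.16) had intervals that included 1.

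The classes held 91 and 23 cells, no population had 20 of both, and the ratio of Ctsc was 0.77, or 1.22 without population 9. The 5 macrophage markers summed to 174 CPM in migratory cells, against 957 CPM in the others, most of it Lyz2 (106 CPM, against 891 CPM), with Pf4 at 0 in both and Trem2 at 0 in the others. Their part in the result was not tested. Around these genes, class II processing was called lower in migratory cells for 3 of 4 genes (Cd74 0.25, H2-DMa 0.089, H2-DMb1 0.098). Psap (0.16), Hexa (0.29) and Grn (0.27) were called lower too, while Lamp1 (5.32) and Cd63 (945 CPM in migratory cells, against 6.96 CPM in the others) were called higher and Cd68 (20.1 CPM in migratory cells, against 244 CPM in the others) lower.

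Germinal centre B cells, the dividing B cells that mutate their antibody genes, held less Ctss and Ctsc than other B cells. Ctss measured 191, 177 and 186 CPM in germinal centre B cells of populations 2, 5 and 8, against 523, 523 and 528 CPM in other B cells of the same populations. Germinal centre B cells were lower in 3 of 3 populations, and the groups did not overlap, with a pooled ratio of 0.34 (0.30 to 0.37). Ctsc measured 72.1, 102 and 52.7 CPM in germinal centre B cells, against 159, 153 and 183 CPM in other B cells (0.48, 0.41 to 0.56), and was no longer called without population 8 (0.57). The 140 cells of the class were led by Jchain and Slpi and were deeper, with a median of 10725.5 UMIs per cell, against 2994.

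In all 3 of the 10 genes were called lower and none higher, where 16.3% of 10336 genes were called lower and 13.1% higher. The third was Ctsw, from 4 UMIs in germinal centre B cells, and the call was lost without population 5 (0.34). The median log2 ratio was -0.48 over the 10 genes and -0.09 over all. Lgmn (1.13, 1.01 to 1.27), Ctsh (0.80, 0.73 to 0.87) and Ctsz (0.88, 0.79 to 0.97) stayed nearest to other B cells. Ctse, which B cells are known to use for antigen processing, was the other way round, at 239.7 CPM in germinal centre B cells, against 91.0 CPM in other B cells (2.63, 2.38 to 2.91). Of 8 lysosomal hydrolases and cofactors, 4 were called lower, among them Psap (0.39), Hexa (0.35) and Gaa (0.49), and none higher. The 5 macrophage markers summed to 322 CPM in germinal centre B cells, against 339.7 CPM in other B cells, with Lyz2 at 20.4 CPM, against 85.8 CPM, and Apoe at 295 CPM, against 225 CPM. Their part in the result was not tested.

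Among other B cells Ctss measured 523, 596, 523, 572, 528 and 585 CPM in populations 2, 3, 5, 6, 8 and 9. The highest was 1.14 times the lowest (1.06 to 1.23). The share of all genes with such a spread among B cells was not computed. Ctsh was even, between 336 and 353.7 CPM in all 6. Ctsa ranged from 138 to 183 CPM and Ctsz from 208 to 242 CPM.

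Macrophages and B cells, both of which present antigen on MHC class II, differed in all 10 genes. Macrophages were higher for 9, led by Ctsl (385 CPM in macrophages, against 18.6 CPM in B cells; 20.8, 18.8 to 23.0), Ctsb (20.0), Ctsc (16.9), Lgmn (11.6) and Ctsd (9.93). Ctss (8.38), Ctsz (4.67), Ctsa (3.48) and Ctsh (2.46) followed. Ctsw was lower (0.44, 0.35 to 0.55) at levels of 3.54 CPM in macrophages and 8.05 CPM in B cells, and was no longer called without population 7 (0.70). Of 11960 genes, 22.3% were called higher and 22.4% lower, and the median log2 ratio was 3.19 over the 10 genes and -0.18 over all.

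Among the 9 genes higher in macrophages, Ctsh differed least, at 842 CPM in macrophages and 342 CPM in B cells. Of 8 lysosomal hydrolases and cofactors, 6 were called higher in macrophages, led by Grn (30.5), and all 4 membrane proteins were (Cd68 61.3). Since no population had 20 cells of each class, class and population cannot be told apart.

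Over 66 values of 14 classes in the populations with at least 20 cells, the 10 genes fell into patterns, described by Pearson's correlation of log2(CPM + 10). The values share 1 pool and many come from the same population. Ctsc and Ctss ran together (0.934), as did Ctsh and Lgmn (0.924), Ctsz and Lgmn (0.912), and Ctss and Lgmn (0.909). Ctsd stood nearest to Ctsb (0.543) and Ctsw (0.5003). Ctsw was negative with the 8 genes other than Ctsd, most with Ctsz (-0.762).

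The genes most like each member over the same values came from 11438 genes. Ctsw was most like Cd226 (0.915) and Cd7 (0.902), Ctsd most like Id2 (0.919) and AW112010 (0.914), and Ctsb most like Axl (0.928) and Hmox1 (0.923). Ctsc came nearest to Slc11a1 (0.963), Ctsl to Tlr13 (0.938), Ctss to Fth1 (0.964), and Ctsa to Cst3 (0.933). Ctsh came nearest to Tlr9 (0.968) and H2-Eb1 (0.967). Ctsz came nearest to Scpep1 (0.933) and Lgmn to Pld4 (0.9504), which was also second for Ctsz (0.914).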

How the data were processed

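Live CD45+ cells of 9 hashtagged samples were pooled for 10x Genomics 5′ sequencing. The authors deposited raw UMI counts per gene and cell (unique molecular identifiers, with no normalization), from Cell Ranger 8.0.1 and mm10, per the submitters' processing notes. The use of intron reads in counting is not stated by these sources. Of 21624 barcodes, none of them listed more than once, 93 failed the stated filters (500 UMIs, 200 genes, 20% mitochondrial) and were removed, as were 184 doublets called by Scrublet in scanpy 1.11.5 (0.855%, at an expected 8%) and 258 cells without a hashtag count at least 3 times the next. The labels name the tags TotalSeq-C and the table TotalSeq-B.

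A cell entered a lineage with at least 3 UMIs of its marker list and 3 times those of every other list. Macrophages, monocytes, migratory dendritic cells and naive and activated T cells also needed 3 UMIs and 3 times those of an opposing list. The minimum was below 3 UMIs for CD4 and CD8 T cells and other conventional dendritic cells. Treg cells needed any Foxp3 UMI and no CD8 gene UMI. Germinal centre B cells needed 3 UMIs of their list, with no ratio and no scaling to depth. Of 50 lineage markers 49 were in the table under the symbols used. Gamma-delta T cells were not gated. Classes were compared within a population from 20 cells of each. Counts were summed by class, in Python 3.11.15 (pandas 2.3.3, numpy 2.4.6); intervals used scipy 1.17.1 and figures matplotlib 3.10.9. Interval coverage was tested on counts simulated from a Poisson model, which the intervals assume. That check cannot show error from spread between cells or populations. The members, the 9 pathway lists (41 genes), the gates and the rules for naming genes were chosen with earlier results of these data known, and the 1.5-fold limit between populations after the values had been seen. Named are the 10 members, genes of the pathway lists, the 3 genes most like each member, and the leading genes of each class as a check of the gates. Some genes that these rules select are not reported here.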

Additional observations from a re-analysis of the deposited data

How the results depend on the processing

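Over 7 comparisons, 1007 ratios of the 10 genes were recomputed under changed settings. These were stricter lineage gates (ratio of 5 or 5 UMIs), a hashtag ratio of 5, doublets kept, or mitochondrial and ribosomal protein UMIs left out. Others were the median over populations, a minimum of 10 UMIs, or each population left out. Of the 1007 ratios, 926 stayed within their interval, 81 moved outside it, none reversed, and 8 changed their call. Without mitochondrial and ribosomal protein UMIs 1 gene was called lower in NK cells than in naive CD8 T cells (Ctsl, 0.47), where none was before. Leaving out populations gave 0 to 1 genes lower in Treg cells than in naive CD4 T cells (Ctsl without population 4) and 0 to 1 lower in macrophages than in B cells (0 without population 7). In germinal centre B cells Ctsw had a ratio of 0.15 without population 2. The cause was not tested. The median over populations could not be given for the 4 comparisons with no population holding both classes, and the comparison of dendritic cells could not be given at the gate ratio of 5 or without population 1, 5 or 7, which left under 20 cells in a class. No paired test was run, since no population is assigned to a group; ratios within populations were given for 3 comparisons. Small classes, such as the 26 plasmacytoid and 23 other conventional dendritic cells, and low levels limit the precision.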
